A study of Mus musculus with 64 samples.

Results

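Ageing of wild-type skeletal muscle was followed in 11 RNA sequencing libraries: 5 from mice labelled 20 months old and 6 from mice labelled 5 months old. The members were chosen by the muscle code and genotype letter in their labels, out of 64 libraries of adipose tissue, liver and muscle in a series on body-wide loss of Myc. All 11 mice were wild-type (WT), with an intact Myc gene, and of strain C57/B6. They also carried the treatment given to the knockout mice of the series: 5 daily intraperitoneal injections of tamoxifen (75 mg/kg) in corn oil, started at weaning once a body weight of 15 g was reached. The age label of the older mice, 20 months, is used here, although the number 18 stands in their codes. Which muscle was taken, and whether each library came from a separate mouse, is not given in the labels, so p-values measure the spread between these libraries. Replicates are numbered 1 to 5 at 20 months and 1 to 6 at 5 months, and those numbers have no order.

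Skeletal muscle loses mass and force late in life, through loss and shrinkage of fibres, remodelling of nerve contacts and a slower repair by satellite cells, the resident stem cells. Glucocorticoids and low insulin or insulin-like growth factor (IGF) signalling drive protein breakdown in muscle through FoxO transcription factors, which switch on ubiquitin ligases and autophagy genes. The connective tissue between fibres is made by fibroblasts and holds collagens, elastin and fibronectin.

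The 11 libraries held 15.4 to 22.4 M reads on genes (M, mega), 15.4 to 19.4 M at 5 months and 19.5 to 22.4 M at 20 months, with 17016 to 18043 genes detected. Fibre markers were high in all of them: 10 myofibre genes summed to between 102700 and 138700 CPM, where CPM stands for the deposited read signal, whose column totals here were 1.08 to 1.32 M. Younger replicates 3 and 4 held Xist, at 167 and 157 CPM, and no Y-linked transcripts, while the other 9 libraries had Y-linked transcripts, so no older library resembled these 2. The liver markers, 7 genes such as Alb, summed to 3021 CPM in older replicate 2 and to 43.8 CPM in younger replicate 1, and were at or below 7.64 CPM in the other 9 libraries. Neutrophil markers summed to 124.5 CPM in older replicate 3 and to between 2.98 and 38.1 CPM elsewhere. The part of these libraries in the results below is given by leaving them out.

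Of 12563 genes tested with limma on log2(CPM + 1), 1112 differed between 20 and 5 months at a Benjamini-Hochberg adjusted p under 0.05, which is 8.85% of the genes. They comprised 649 genes higher at 20 months (5.17%) and 463 lower (3.69%). Without adjustment 3838 genes passed the same threshold. The change exceeded 1 on the log2 scale for 94 of the risen genes and for 169 of the fallen genes. In 677 genes (5.39%) no older library overlapped a younger one, and 507 of these were among the 1112. The median difference over all genes tested was 0.036, and it lay between -0.006 and 0.102 under the other scalings of the libraries. The direction of all 1112 genes held in every alternative that tested them.

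How many genes passed depended on single libraries. Without older replicate 1, 2, 3, 4 or 5 the count was 1724, 21, 181, 43 or 229. Leaving out younger replicate 1, 2, 3, 4, 5 or 6 gave 339, 136, 436, 181, 2839 or 756. Without both Xist libraries 118 of 12364 genes (0.954%) were called, and 108 of these belonged to the 1112. edgeR's quasi-likelihood test on the recovered reads called 1187 genes, 655 lower (5.21%) and 532 higher (4.23%), of which 968 were among the 1112. The share of higher genes among the calls was 58.4% with limma, 44.8% with edgeR, 47.1% with DESeq2 and 68.0% when every library was scaled to the same total. Of 88 called genes followed through these alternatives, 2 were still called without older replicate 2, 11 without older replicate 4, and all 88 without younger replicate 5. In 19 genes the call held with each of the 11 libraries left out in turn: Zbtb37, Arpc5l, Itga10, Tmem245, Hook1, D830031N03Rik, Ube3a, Syt9, Hook3, Plcd3, Acbd4, Zfp367, Cbx5, Ccdc50, Lnpep, Mib1, Dmxl1, Cpn1 and Wnk3.

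Among called genes that averaged 5 CPM or more and whose groups did not overlap, the largest rise was that of Dkk3, a secreted antagonist of the Wnt family of signals, at chr7:112116019-112159482 of build GRCm38.p6. Dkk3 read 201, 181, 211, 114 and 103 CPM in older replicates 1 to 5, and 8.43 to 81.9 CPM with a median of 20.6 in the younger libraries. Every older library was above every younger one, and the log2 fold change was 2.73 (SE 0.44, limma adjusted p = 0.0131). Ostn, which encodes the muscle secreted factor osteocrin, stood at 33.4, 70.0, 31.5, 48.8 and 24.4 CPM at 20 months. Its younger libraries lay between 4.37 and 23.8 CPM (median 8.39), and the log2 fold change was 1.94 (SE 0.39, adjusted p = 0.024).

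Mss51, a fibre gene tied to the control of muscle metabolism and to myostatin signalling, was at 211, 165, 297, 226 and 174 CPM in the older libraries. The younger libraries held 21.3 to 129 CPM, with a median of 79.5, and the rise was 1.67 (SE 0.38, adjusted p = 0.0294). Dach2, a transcriptional regulator that responds to nerve activity in muscle, read 11.2, 22, 19.7, 24.9 and 21.4 CPM at 20 months against 3.42 to 8.78 CPM (median 6.6) at 5 months. The groups did not overlap, and the log2 fold change of Dach2 was 1.52 (SE 0.24, adjusted p = 0.0131).

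Lnpep, a membrane aminopeptidase carried in the same vesicles as the insulin-sensitive glucose transporter, was among the steadiest of the risen genes. It read 30.4, 45.6, 42.7, 51.4 and 21.9 CPM in the older libraries and 6.77 to 13.5 CPM (median 12.2) in the younger. The log2 fold change was 1.61 (SE 0.22, adjusted p = 0.00965), and the adjusted p stayed at or below 0.0419 with each library left out. The other 7 of the 12 leading rises were Tmem132b (2.58), F830016B08Rik (2.35), Zbed6 (1.99), D830031N03Rik (1.81), Sim1 (1.67), Rasd2 (1.58) and the long noncoding RNA Oip5os1 (1.53), each value a log2 fold change. Zbed6 overlaps Zc3h11a and D830031N03Rik overlaps Macf1 in the annotation, so their counts are uncertain.

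**Figure D1:**
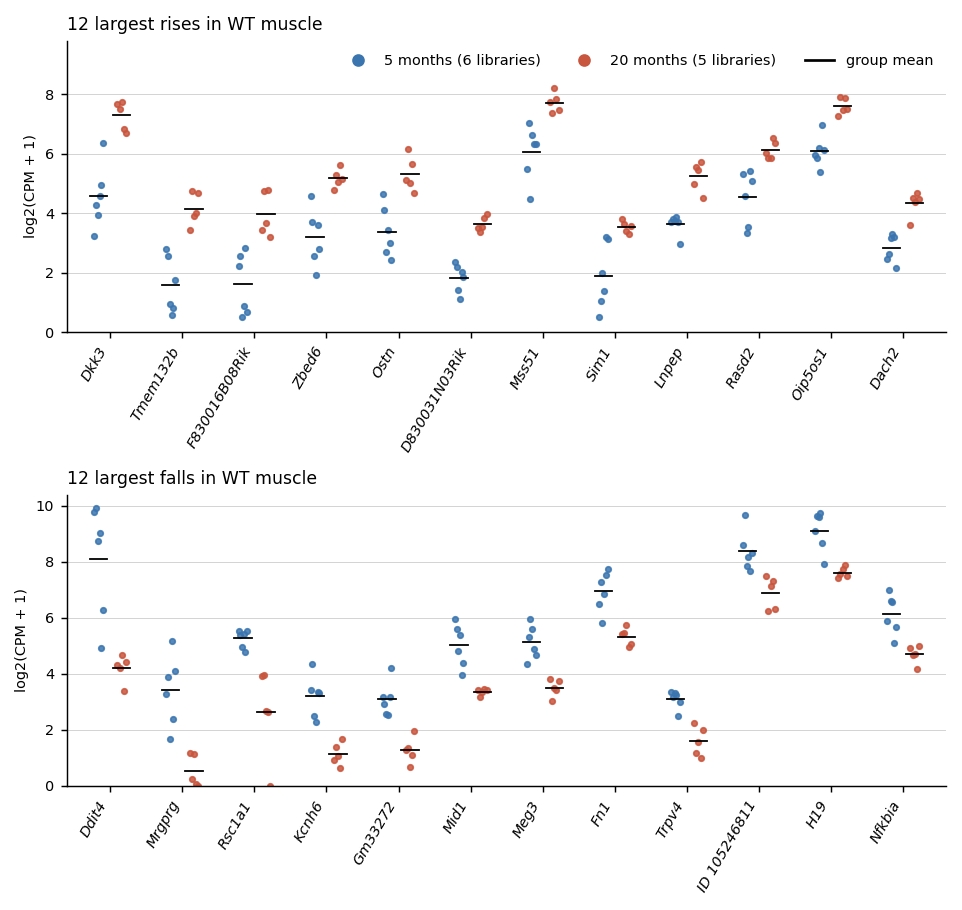
Level of the 12 largest rises (top) and the 12 largest falls (bottom) among called genes without overlap between the groups, in each library on the log2(CPM + 1) scale, 1 point per library, blue for 5 months and red for 20 months, with a line at the group mean. Dkk3 runs from 8.43 to 81.9 CPM in the younger and from 103 to 211 CPM in the older libraries.

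Among called genes of the same kind, with groups that did not overlap, the largest fall was that of Ddit4, an inhibitor of the growth kinase mTORC1 that glucocorticoids and low oxygen induce, at chr10:59949675-59951770. Ddit4 read 19.1, 17.6, 24.8, 9.55 and 20.3 CPM in the older libraries. At 5 months it read 880, 962, 429, 519, 29.4 and 76.8 CPM in replicates 1 to 6. The log2 fold change was -3.90 (SE 0.80, adjusted p = 0.0246). The groups did not overlap, but younger replicate 5 lay just above the highest older library and replicate 6 far below the first 4.

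Nfkbia, the inhibitor of NF-kB and a glucocorticoid target, read 29.2, 24.4, 25, 17.2 and 31.2 CPM at 20 months and 33.2 to 127 CPM (median 76.4) at 5 months. The fall was 1.44 on the log2 scale, with SE 0.30 and adjusted p = 0.0266. The cation channel gene Trpv4 stood at 3.72, 1.27, 1.97, 1 and 2.99 CPM in the older and 4.70 to 9.32 CPM in the younger libraries, and fell by 1.5 on the log2 scale (SE 0.24 for the change; adjusted p = 0.0131). Mid1, an X-linked microtubule-associated ubiquitin ligase, was at 7.94 to 10.1 CPM at 20 months and 14.4 to 60.6 CPM at 5 months, and fell by 1.65 (SE 0.31, adjusted p = 0.0182).

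Both imprinted noncoding RNAs that are abundant in growing muscle, H19 and Meg3, were lower in every older library. H19, at chr7:142575530-142578146, read 170, 189, 213, 234 and 181 CPM at 20 months and 243 to 851 CPM (median 670) at 5 months. The fall on the log2 scale was 1.5, with SE 0.29 and adjusted p = 0.0195. Meg3, at chr12:109540996-109571729, read 13.0, 7.21, 10.4, 9.65 and 12.4 CPM against 19.6 to 61.6 CPM (median 34.0), a fall of 1.64 (SE 0.26, adjusted p = 0.0131). Igf2, the growth factor gene next to H19, was read after its value was seen: 11.7 to 18.3 CPM at 20 months and 17.1 to 27.6 CPM at 5 months, with a log2 difference of -0.45 (adjusted p = 0.0812).

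Some leading falls carry limits of annotation or of genotype. Rsc1a1, at 0 to 14.7 CPM in the older and 26.7 to 45.5 CPM in the younger libraries, overlaps Ddi2 in the annotation, so its count is uncertain. Gm33272 is placed on chromosome Y in the annotation, yet read 4.93 and 4.74 CPM in the 2 libraries without Y-linked transcripts. Mrgprg (-2.89) and a gene without a symbol in the table used (-1.5) complete the 12 beside Kcnh6 and Fn1.

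Kcnh6, a potassium channel gene on chromosome 11, fell by 2.06 (SE 0.33, adjusted p = 0.0131), from 3.84 to 19.4 CPM at 5 months to 0.55 to 2.23 CPM at 20 months. In Myc knockout muscle its ageing difference was -0.38 (adjusted p = 0.53). C130046K22Rik, picked after its values were seen, lies on the same chromosome and was listed at 0 in all 5 older WT libraries. It read 1.45 to 2.04 CPM in younger replicates 1, 2, 5 and 6, and 0.0821 and 0 CPM in replicates 3 and 4. In the 9 knockout libraries it read 1.69 to 2.86 CPM. A value of 0 allows up to 3 reads, or 0.150 to 0.246 CPM in these libraries. Nnt, on chromosome 13 and also picked after its values were seen, varied within each age. It read 151, 36.9, 46.6, 184 and 39.6 CPM in older replicates 1 to 5. In younger replicates 1 to 6 it read 229, 136, 49.8, 68.8, 34.5 and 58.4 CPM, and in knockout libraries 42.1 to 86.9 CPM. The part of an inherited difference between the mice in these genes was not tested.

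The genes that glucocorticoids induce formed the group with the most calls. Of 28 such genes, all tested, 12 were lower at 20 months and none higher, where 3.69% of all genes tested were lower. The median log2 difference was -1.39 against 0.036 over all genes. Beside Ddit4 and Nfkbia they were Per1, Tsc22d3, Sgk1, Cebpb, Cebpd, Mt1, Mt2, Errfi1, Arrdc2 and Sesn1. Mt1, a metal-binding metallothionein that glucocorticoids and zinc induce, read 88.8, 17.7, 36.9, 25.1 and 15.2 CPM in the older libraries. In the younger libraries it read 443, 632, 950, 1613, 21.6 and 195 CPM, and the log2 fold change was -3.53 (SE 0.90, adjusted p = 0.0373). Mt2, its neighbour, followed with 5.18 to 87.4 CPM against 8.42 to 1179 CPM (median 429), a fall of 3.93 (SE 1.09, adjusted p = 0.0453).

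The groups overlapped for Mt1 and Mt2, since younger replicate 5 stood among the older libraries. The 250 bases upstream of Mt2 in the RefSeq promoter table (build GRCm38.p6, plus strand, 5′ to 3′) are shown as the regulatory sequence of the gene with the larger fall of the pair. The window is chr8:94172368-94172617. That of Mt1 is not shown, because it runs into the annotated gene. Capitals mark matches, on either strand, to TGCGCNC or TGCACNC, the core of the metal response element bound by the zinc-sensing factor MTF1.
Mt2: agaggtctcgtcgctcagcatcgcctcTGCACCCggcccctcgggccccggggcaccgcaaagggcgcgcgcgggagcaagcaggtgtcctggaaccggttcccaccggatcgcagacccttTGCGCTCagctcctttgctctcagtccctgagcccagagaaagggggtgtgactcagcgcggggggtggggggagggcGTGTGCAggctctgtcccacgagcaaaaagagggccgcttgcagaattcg
The window held 3 matches. Of 32851 windows of this length, 21.4% held at least 1 match, 5.18% at least 2 and 1.26% at least 3. A match describes letters in this window and not a bound site. The start in the table may lie upstream of the one in common use, so known elements of this promoter may lie outside the window.

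Cebpb, a transcription factor of the glucocorticoid and inflammatory responses, read 84.4, 59.1, 69.8, 50.8 and 55.5 CPM in the older libraries. The younger libraries held 261, 282, 257, 299, 60.4 and 122 CPM, and the log2 fold change was -1.55 (SE 0.37, adjusted p = 0.0321). Arrdc2, an arrestin family gene that glucocorticoids induce in muscle, fell by 1.52 (SE 0.36, adjusted p = 0.0315). Its older libraries lay at 43.8 to 82.6 CPM and its younger at 59.3 to 282 CPM (median 214).

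The same libraries were high for most members. Taken against the mean of the older libraries, the median of the 28 genes was 1.63, 2.20, 1.49 and 1.62 on the log2 scale in younger replicates 1 to 4, and 0.89 in replicate 6. In younger replicate 5 it was -0.11, within the range of the older libraries, which ran from -0.39 to 0.44. Between 19 and 21 of the 28 genes stood more than 1 above the older mean in younger replicates 1 to 4, 10 did in replicate 6 and 0 in replicate 5. Without the Xist libraries the median was -1.11 and 0 genes were called. Leaving out 1 library at a time gave 0 to 20 calls. With edgeR 17 were lower.

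**Figure D2:**
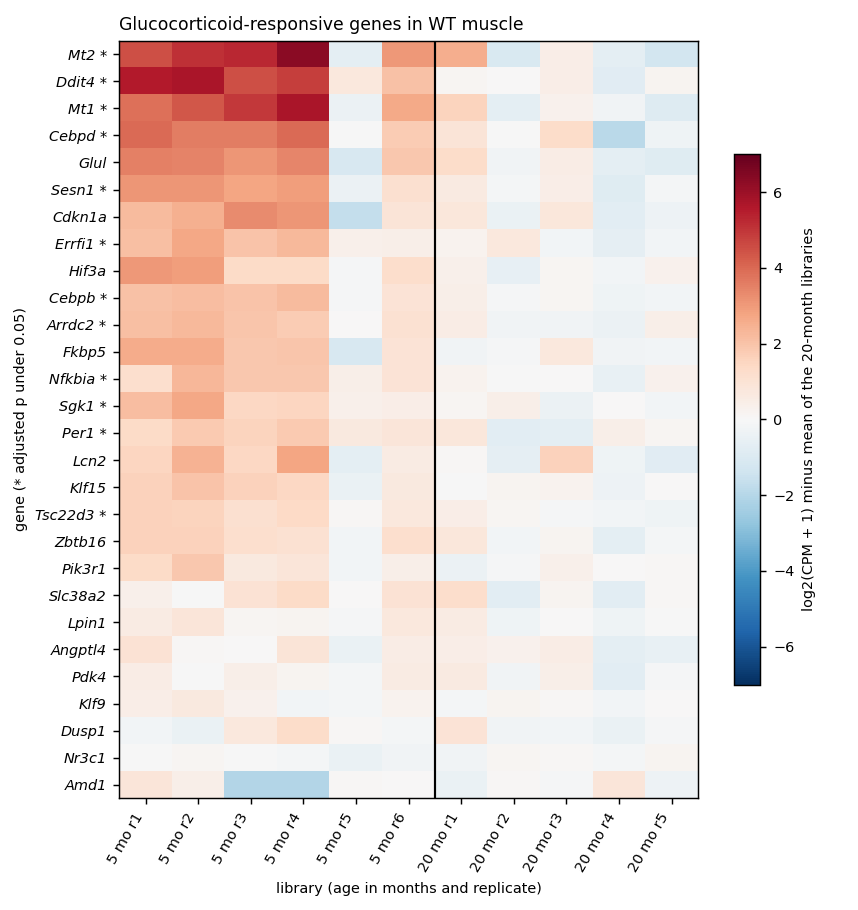
Each of 28 glucocorticoid-responsive genes in each WT muscle library, as log2(CPM + 1) minus the mean of the 5 older libraries; the columns are labelled by age in months (mo) and replicate (r), and an asterisk marks an adjusted p under 0.05. Younger replicates 1 to 4 are red across most genes, with medians of 1.49 to 2.20, while replicate 5 has a median of -0.11.

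Among genes of muscle wasting that FoxO factors control, 30 were tested. At 20 months 5 were lower (Foxo3, Sesn1, Ddit4, Mt1 and Mt2; 3.69% of all genes were) and none higher, with a median of -0.89, and all but Foxo3 of these are also in the glucocorticoid list. Against the older mean, the median of the 30 genes was 1.05 to 1.52 in younger replicates 1 to 4, -0.30 in replicate 5 and 0.69 in replicate 6. Foxo3, the FoxO factor that drives atrophy genes, read 52.0, 46.6, 61.9, 48.7 and 71.3 CPM at 20 months. At 5 months it read 166, 164, 121, 112, 53.7 and 110 CPM, which gave a change of -1.03 (SE 0.25, adjusted p = 0.0336). Sesn1, a stress-induced brake on mTORC1, read 36.8 to 102 CPM in the older and 49.2 to 576 CPM (median 487) in the younger libraries and fell by 2.11 (SE 0.59, adjusted p = 0.0453).

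The ubiquitin ligases that mark atrophy were not called. Trim63, or MuRF1, read 1752, 1157, 1665, 359 and 1035 CPM in the older libraries and 7490, 5529, 5598, 5273, 433 and 2898 CPM in the younger (log2 difference -1.70, SE 0.66, adjusted p = 0.11). Fbxo32, or atrogin-1, read 708 to 2463 CPM against 1043 to 4842 CPM (-0.71, SE 0.41, adjusted p = 0.258). Mstn, which encodes the growth inhibitor myostatin, read 27.7 to 56.8 CPM at 20 months and 32.0 to 280 CPM (median 169) at 5 months, with an adjusted p of 0.0675. By edgeR 14 of the 30 genes were lower, and without the Xist libraries limma called none of them, with a median of -0.82.

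Fosl2, an AP-1 subunit, Zfp36, which destabilises inflammatory messenger RNAs, and the matricellular growth factor gene Ccn2 were lower at 20 months among 25 immediate early genes, with none higher. Of all genes tested 3.69% were lower. Fosl2 was at 11.4 to 17.0 CPM in the older and 16.6 to 90.3 CPM in the younger libraries, a fall of 1.53 (SE 0.38, adjusted p = 0.035). Zfp36 stood at 8.95 to 26.5 CPM against 18.4 to 192 CPM and fell by 2.05 (SE 0.52, adjusted p = 0.037). The median of the 25 genes was -1.17. Against the older mean it was 2.01 and 2.48 in younger replicates 3 and 4, the Xist libraries, and 0.07 to 0.85 in the other 4. Without the Xist libraries it was -0.53 and 0 genes were called.

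Among 21 clock genes Clock was higher, and Per1 and Cry2 lower, where 5.17% of all genes were higher and 3.69% lower. Clock read 53.4, 68.1, 77.2, 58.7 and 57.0 CPM in the older libraries and 39.0 to 55.4 CPM (median 40.1) in the younger, a rise of 0.55 (SE 0.13, adjusted p = 0.0304). Per1, a clock repressor that is also a direct glucocorticoid target, stood at 41.2 to 122 CPM against 111 to 246 CPM and fell by 1.34 (SE 0.30, adjusted p = 0.0294). Cry2, its partner in repression, fell by 1.03 (SE 0.25, adjusted p = 0.0349). Once a trend on transcript GC content was removed from each library, Per1 kept the call, and Clock and Cry2 lost it.

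Dbp and Arntl, which peak at opposite times of day, were not called. Dbp spanned 7.89 to 148 CPM within the older and 6.99 to 68.2 CPM within the younger libraries. Arntl spanned 19.3 to 122 CPM and 24.4 to 166 CPM. At each age 1 library had both the highest Dbp and the lowest Arntl, older replicate 4 and younger replicate 5. Each of them also had the lowest median of the 28 glucocorticoid-responsive genes in its group, -0.39 and -0.11 against the older mean. The time of day at which tissue was taken is not given in the labels, and its part in these results was not tested.

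Among 50 extracellular matrix genes tested, 9 fell, none rose and 41 were not called, where 3.69% of all genes fell and 5.17% rose. The 9 were the collagen genes Col1a1, Col1a2, Col5a2 and Col12a1, and Sparc, Fn1, Eln, Lox and Ccn2. The median of the 50 was -0.58, and in 2 of them every older library lay below every younger one. Fn1, which encodes fibronectin, read 42.4, 42.7, 52.5, 29.9 and 32.8 CPM in the older libraries and 56.0 to 213 CPM (median 134) in the younger. The groups did not overlap, and Fn1 fell by 1.63 (SE 0.30, adjusted p = 0.0178).

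Col1a1, the main chain of fibrillar collagen, read 60.4, 30.5, 44.7, 35.1 and 44.1 CPM at 20 months and 92.3, 301, 112, 59.3, 147 and 176 CPM at 5 months. The log2 fold change of Col1a1 was -1.61 (SE 0.34, adjusted p = 0.0266). Younger replicate 4 lay just under the highest older library. Col1a2, its partner chain, fell by 1.43 (SE 0.29, adjusted p = 0.0247), and Eln, which encodes elastin, by 1.34 (SE 0.24, adjusted p = 0.0159). Eln read 17.7 to 37.5 CPM in the older and 33.8 to 88.0 CPM in the younger libraries.

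Col3a1, the second fibrillar collagen of muscle, was not called, at 64.6 to 125 CPM against 91.5 to 366 CPM (-0.97, SE 0.35, adjusted p = 0.0849). Unlike the glucocorticoid group, the matrix genes were not lowest in younger replicate 5. Against the older mean the median of the 50 genes was 0.31 to 0.65 in younger replicates 1 to 5 and 1.05 in replicate 6, while the older libraries spanned -0.36 to 0.44. Without the Xist libraries the median was -0.61 and 3 genes were called, all lower. Leaving out 1 library at a time gave 0 to 20 lower calls, and edgeR gave 11.

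The called markers of fibroblasts, tendon, macrophages, smooth muscle, nerve and endothelium were all lower at 20 months. Of all genes tested 3.69% were lower. Of 11 fibroblast markers Pi16 and Mfap5 fell, with a median of -0.57, and the 11 summed to 679 to 1077 CPM at 20 months and 882 to 1519 CPM at 5 months. Pi16, a marker of fibroblast progenitors, read 13.1 to 40.2 CPM in the older and 30.8 to 81.7 CPM in the younger libraries, a fall of 1.46 (SE 0.32, adjusted p = 0.0276). Of 9 tendon markers Cilp2 fell, by 1.21 (SE 0.30, adjusted p = 0.0349), and the tendon sums were 104 to 439 CPM against 291 to 820 CPM. In bulk tissue, fewer cells of a type and less RNA per cell cannot be told apart. The part of these cell types in the matrix and immune results was not tested.

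Among 12 macrophage markers 10 were tested, and Mrc1, C1qc and Cd14 fell, where 3.69% of all genes tested fell. All 10 had a negative log2 difference, and without the Xist libraries 1 was called. Mrc1, the mannose receptor of resident macrophages, read 8.66, 6.97, 12.8, 4.25 and 8.32 CPM at 20 months and 9.44 to 35.2 CPM (median 19.4) at 5 months, a fall of 1.21 (SE 0.29, adjusted p = 0.0328). C1qc, a complement subunit made by macrophages, fell by 1.38 (SE 0.32, adjusted p = 0.0314). The macrophage median was -1.24, and the markers summed to 57.0 to 165 CPM in the older and 112 to 437 CPM in the younger libraries.

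Of 9 pericyte and smooth muscle markers Myh11, Tagln and Cnn1 fell, where 3.69% of all genes tested fell. The median of the 9 was -0.49, with 6 negative and 3 positive differences. Their sums overlapped, at 542 to 846 CPM at 20 months and 514 to 929 CPM at 5 months. Without the Xist libraries 0 of the 9 were called. Myh11, the smooth muscle myosin, stood at 14.3 to 54.2 CPM at 20 months and 53 to 84.5 CPM at 5 months and fell by 1.12 (SE 0.29, adjusted p = 0.0377). Pmp22, a myelin protein, was the 1 gene called lower of 11 nerve and Schwann cell markers (-0.99, SE 0.23, adjusted p = 0.0301). Flt1, a receptor for vascular growth factor, was the 1 gene called of 10 endothelial markers (-0.50, SE 0.13, adjusted p = 0.0385).

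The remaining marker lists showed few calls. None of the 10 myofibre genes was called by limma (2 lower at an unadjusted p under 0.05) or by edgeR. The 9 tested satellite cell markers had no call with limma (2 higher and 1 lower at an unadjusted p under 0.05, and 0 by edgeR). Pax7, the factor that defines satellite cells, stood at 2.44 to 4.67 CPM at 20 months and 0.246 to 3.59 CPM at 5 months (0.90, adjusted p = 0.0623). Of 10 white adipocyte markers Lep rose, from 0 to 1.86 CPM at 5 months to 1.45 to 9.87 CPM at 20 months (1.94, SE 0.36, adjusted p = 0.0183), and Pnpla2, the first lipase of fat breakdown, fell by 0.81 (SE 0.22, adjusted p = 0.0428). The median of the 10 was -0.40, with 8 negative and 2 positive differences. Over all genes tested 5.17% rose and 3.69% fell. No T cell marker passed the filter on low values; Cd3e, Cd4 and Cd8a were among the 12, which summed to at most 1.94 CPM. None of the tested erythroid (5), brown adipocyte (5), neutrophil (3) or cartilage and bone (2) markers was called, nor was the 1 B cell marker tested. Of these, 1 brown adipocyte marker was lower at an unadjusted p under 0.05, and edgeR called 1. Of 8 skin markers 1 was tested, Krt10, and it was called higher.

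**Figure D3:**
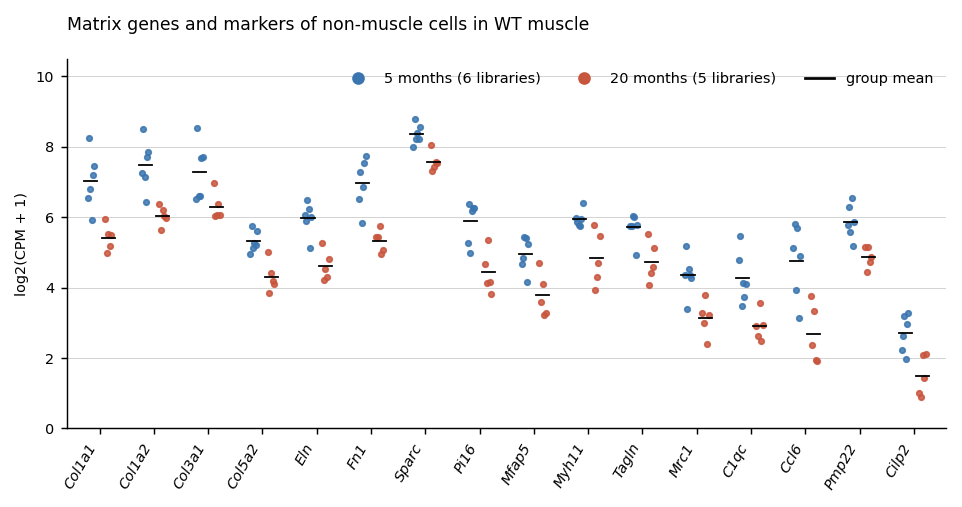
Level of 9 genes of the matrix and its fibroblasts and of 7 genes of smooth muscle, macrophages, Schwann cells and tendon in each library on the log2(CPM + 1) scale, 1 point per library, blue for 5 months and red for 20 months, with a line at the group mean. The mean at 20 months lies below the mean at 5 months for each gene shown; Col3a1 is the 1 gene drawn that was not called.

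Immune gene groups differed in their calls. Of 26 tested genes of inflammation, complement and chemokines, Ccl6, C1qc and Nfkbia fell and none rose, where 3.69% of all genes tested fell. The median was -0.87, with 13 lower and 0 higher at an unadjusted p under 0.05. By edgeR 5 were lower, and without the Xist libraries 0 were called. Ccl6, a chemokine of myeloid cells, read 2.79 to 12.7 CPM in the older and 7.87 to 55.4 CPM in the younger libraries, a fall of 2.10 (SE 0.50, adjusted p = 0.0319). None of 41 interferon response genes was called (median 0.19), with 4 higher and 2 lower at an unadjusted p under 0.05, and edgeR called 0. None of 20 antigen presentation genes was called either (median -0.17, 2 higher and 1 lower unadjusted, 0 by edgeR).

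Fibre type was read from the contractile genes. None of 14 fast fibre genes was called (median 0.017, 0 at an unadjusted p under 0.05, 0 by edgeR). Myh4, the fastest myosin, stood at 43860 to 67510 CPM in the older and 49250 to 72840 CPM in the younger libraries. Of 14 slow fibre genes 1, the slow-type myosin Myh7b, was called lower (-0.97, SE 0.25, adjusted p = 0.0382), where 3.69% of all genes tested were lower. Without the Xist libraries 0 of the 14 were called. The slow fibre median was -0.995.

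The slow genes differed most between younger libraries. Myh7, the slow myosin, read 1506, 1446, 84.3, 242, 5.25 and 6.33 CPM at 5 months and 17.5, 8.12, 71.0, 20.1 and 31.9 CPM at 20 months. The difference of -2.22 had an SE of 1.39 and an adjusted p of 0.299. Atp2a2, the calcium pump of slow fibres, read 1020 and 873 CPM in younger replicates 1 and 2 and 60.4 to 209 CPM in the other 4, against 48.1 to 98.1 CPM in the older libraries (adjusted p = 0.139). Which muscle each library holds is not given in the labels, so its part was not tested. Of 14 tested genes of developing or regenerating fibres 1, the neural cell adhesion molecule gene Ncam1, was called lower, where 3.69% of all genes tested were. Without the Xist libraries 0 of these 14 were called. Myh8, the perinatal myosin, read 1.46 to 2.89 CPM at 20 months and 3.06 to 31.3 CPM at 5 months (adjusted p = 0.0744).

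At the nerve contact, Dach2 rose and Ncam1 fell among 25 tested genes of the neuromuscular junction and of denervation. Of all genes tested 5.17% rose and 3.69% fell. Ncam1 read 7.51, 3.70, 5.57, 4.75 and 5.68 CPM at 20 months and 8.49 to 18.3 CPM at 5 months, with no overlap, and fell by 1.09 (SE 0.19, adjusted p = 0.0159). Chrna1, the acetylcholine receptor subunit that rises when muscle loses its nerve, stood at 12.6 to 17.2 CPM against 8.98 to 31.0 CPM (adjusted p = 0.593).

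Of 28 genes that couple excitation to calcium release, 4 were higher and none lower, where 5.17% of all genes were higher. The 4 were Cacng1 and Cacna2d1, subunits of the voltage sensor, Jph2, which tethers the membranes of the junction, and Trdn, which anchors the release channel. Cacna2d1 read 702, 777, 660, 697 and 725 CPM in the older and 366 to 601 CPM (median 459) in the younger libraries. The rise was 0.62, with SE 0.12, adjusted p = 0.0207 and no overlap. Cacng1 read 268 to 365 CPM against 207 to 247 CPM, a rise of 0.48 (SE 0.10, adjusted p = 0.0266), and Trdn rose by 0.73 (SE 0.17, adjusted p = 0.0315). The median of the 28 genes was -0.047, with 7 higher and 7 lower at an unadjusted p under 0.05. No gene was called without the Xist libraries. With 1 library left out, 0 to 6 were called higher and 0 to 3 lower. When a trend on transcript GC content was removed from each library 2 were called, and Cacna2d1 and Trdn lost the call.

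Of 38 genes of glucose uptake, glycogen and glycolysis, Slc2a12 and Ppp1r3a were higher, and Slc2a1, Slc2a4 and Eno1 lower, shares close to the 5.17% higher of all genes and above the 3.69% lower. All 5 lost the call with the GC trend removed. Slc2a4, the insulin-sensitive transporter GLUT4, read 639, 574, 615, 643 and 627 CPM in the older and 659 to 967 CPM (median 846) in the younger libraries. The groups did not overlap, and the fall was 0.41 (SE 0.12, adjusted p = 0.0459). Slc2a12, a second insulin-responsive transporter, rose by 0.82 (SE 0.20, adjusted p = 0.0357), and Ppp1r3a, which targets a phosphatase to glycogen, by 0.80 (SE 0.19, adjusted p = 0.0335). Slc2a1, the basal transporter GLUT1, read 7.70 to 23.4 CPM against 9.53 to 54.5 CPM and fell by 1.56 (SE 0.41, adjusted p = 0.0382).

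Among 39 genes of fatty acid uptake and oxidation 2 rose and 1 fell, which is no more than the shares over all genes (5.17% and 3.69%). Acadm, the first enzyme of medium-chain fatty acid oxidation, read 475, 593, 537, 586 and 563 CPM at 20 months and 343 to 464 CPM (median 402) at 5 months, without overlap. It rose by 0.45 (SE 0.10, adjusted p = 0.0294). Fabp3, the fatty acid carrier of muscle, rose by 0.58 (SE 0.15, adjusted p = 0.0372), and Ppard, a nuclear receptor for fatty acids, fell by 0.83 (SE 0.22, adjusted p = 0.0382). Pdk4 and Ucp3, which rise with fasting, had log2 differences of -0.25 and 0.07 (adjusted p = 0.514 and 0.82). Among 28 lipid synthesis genes Me1 and Idi1 rose, Idi1, an enzyme of the sterol pathway, by 0.82 (SE 0.16, adjusted p = 0.0193). With the GC trend removed, Fabp3 and Idi1 kept the call, and Acadm, Ppard and Me1 lost it.

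Mitochondrial genes gave few calls. Of 24 regulators of mitochondrial biogenesis, Tfam and Gabpa rose and none fell, where 5.17% of all genes rose. The median was 0.28. Tfam, which packs and transcribes mitochondrial DNA, read 54.7, 87.9, 64, 74.4 and 64.4 CPM in the older and 33.3 to 65.9 CPM (median 37.5) in the younger libraries, a rise of 0.70 (SE 0.18, adjusted p = 0.0372). Ppargc1a, the coactivator that drives mitochondrial biogenesis, stood at 39.9 to 77.1 CPM against 28 to 70.7 CPM (adjusted p = 0.449). Neither Tfam nor Gabpa was called once GC content was modelled.

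None of 79 nuclear genes for subunits of oxidative phosphorylation was called (median 0.015, 2 higher at an unadjusted p under 0.05, 0 by edgeR). Among 78 mitochondrial ribosomal proteins 1 gene, Mrpl19, was called higher (median 0.071), and it lost the call with the GC trend removed. Ageing of knockout muscle, taken from a fit of all 20 muscle libraries, called 10 of the 79 oxidative phosphorylation genes lower (median -0.32). Over all genes, that contrast called 267 of 12563 lower, with a median of -0.021. The difference between genotypes was called for none of the 79 genes.

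Among 32 genes of the insulin and IGF pathway, the receptor gene Ghr rose and Igf1r, Igfbp3 and Sesn1 fell. Of all genes tested 5.17% rose and 3.69% fell. Ghr, the growth hormone receptor, read 144, 254, 175, 195 and 177 CPM in the older and 105 to 167 CPM (median 114) in the younger libraries, a rise of 0.63 (SE 0.16, adjusted p = 0.0349). Igf1r, the receptor for IGF1, stood at 22.8 to 37.1 CPM against 42.5 to 79.3 CPM, without overlap, and fell by 0.73 (SE 0.17, adjusted p = 0.0325). Igf1 itself spanned 2.34 to 17.8 CPM at 20 months and 2.05 to 17.1 CPM at 5 months (adjusted p = 0.87). With the GC trend removed, Igf1r kept the call, and Ghr, Igfbp3 and Sesn1 lost it.

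Secreted muscle factors and Wnt antagonists, 16 of 22 tested, held 3 rises, Dkk3, Ostn and Bdnf, and 1 fall, Wif1. Of all genes tested 5.17% rose and 3.69% fell. Bdnf, the neurotrophin, read 2.60 to 4.87 CPM at 20 months and 0.691 to 2.97 CPM at 5 months and rose by 0.79 (SE 0.22, adjusted p = 0.0456). Wif1, another secreted Wnt inhibitor, fell by 1.15 (SE 0.27, adjusted p = 0.032), from 1.11 to 5.82 CPM to 0.15 to 1.34 CPM. With the GC trend removed, Bdnf lost the call, and Dkk3, Ostn and Wif1 kept it.

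Myc, intact in these mice, read 13.1, 4.97, 8.70, 6.10 and 6.65 CPM in the older and 17.8, 14.1, 33.7, 81.3, 6.15 and 21.5 CPM in the younger libraries. The mean log2(CPM + 1) was lower by 1.41 at 20 months, with p = 0.0281 in a two-sided exact permutation test over the 11 libraries and an adjusted p of 0.079 in the limma fit. The 2 highest values were the Xist libraries, and without them the difference was -0.78 (exact p = 0.0873). Leaving out older replicate 2, 4 or 5 gave exact p = 0.0667, 0.0619 and 0.0571.

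Of 25 p53 target and senescence genes tested, Sesn1, Tnfrsf10b and Igfbp3 fell and none rose, where 3.69% of all genes fell and 5.17% rose. Cdkn1a, which encodes the cell cycle inhibitor p21 and is also glucocorticoid-responsive, read 45.1 to 135 CPM at 20 months. Its younger libraries held 353, 424, 750, 649, 22.9 and 145 CPM (-1.71, SE 0.76, adjusted p = 0.148). Of 39 proliferation genes 16 passed the filter, and Aurka, a mitotic kinase, rose by 1.29 (SE 0.22, adjusted p = 0.0152), from 0.821 to 3.52 CPM to 4.58 to 6.90 CPM.

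The calls among genes of oxidative defence were all lower. Hmox1, the heme-degrading enzyme of the Nrf2 and stress responses, read 15.0, 10.2, 11.7, 4.70 and 9.29 CPM in the older libraries. In the younger it read 194, 118, 63.1, 197, 10.8 and 50.7 CPM, a fall of 2.83 (SE 0.62, adjusted p = 0.0279). With Mt1 and Mt2, which are also in the glucocorticoid and FoxO lists, Hmox1 made up the 3 falls among 27 antioxidant genes. None rose, where 3.69% of all genes tested fell. At an unadjusted p under 0.05, 7 were lower and 3 higher, and without the Xist libraries 0 were called.

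Of 40 autophagy and lysosome genes Atg9a and Npc1 fell, and none of 35 proteasome genes was called (median -0.041, 3 lower at an unadjusted p under 0.05, 1 lower by edgeR). Among 34 heat shock genes Chordc1 rose and Hspa2 fell, and among 30 genes of the unfolded protein response Edem1 fell. Of 51 ribosome biogenesis genes Wdr12 rose and Rrp1 fell, and of 19 genes of polyamine and creatine metabolism Oaz2 was higher. Over all genes tested 5.17% were higher and 3.69% lower. With the GC trend removed, Chordc1, Wdr12, Rrp1, Atg9a and Npc1 lost the call, and the rise of Chordc1 went from 0.41 to 0.027.

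**Figure D4:**
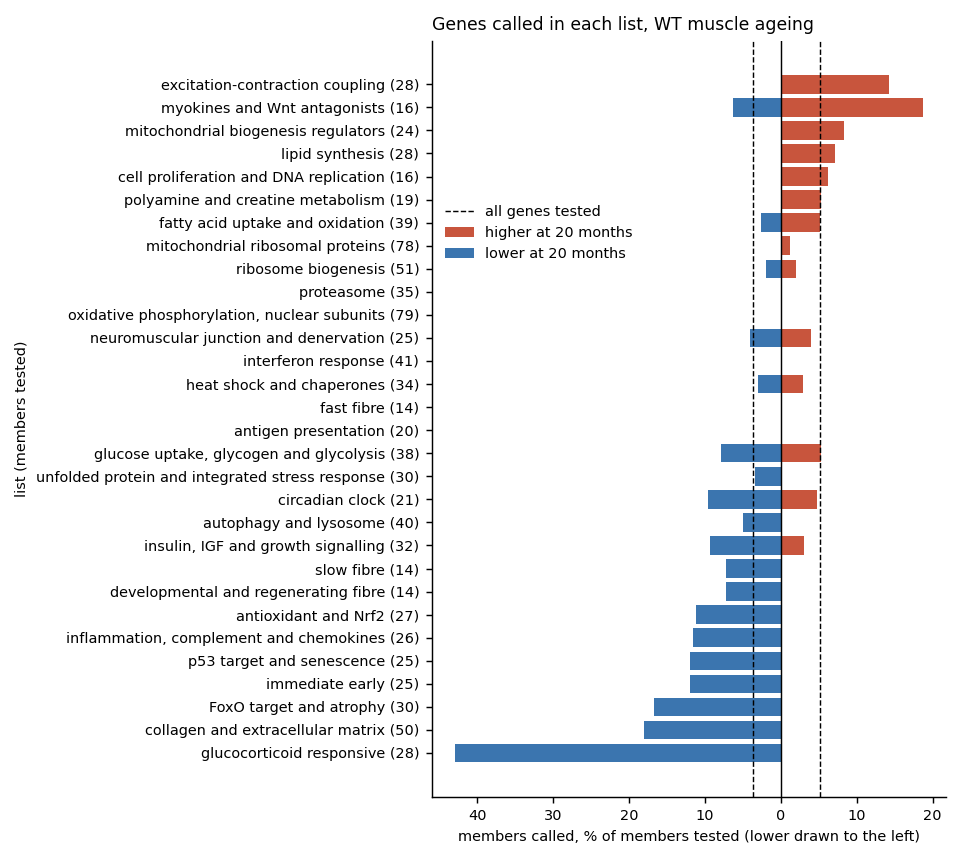
Share of tested members called higher (red, right) or lower (blue, left) at 20 months in each of 30 lists, in percent, with the number tested in brackets and dashed lines at the shares over all genes tested (5.17% higher and 3.69% lower). The glucocorticoid list has the longest bar, with 12 of 28 genes lower.

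The genes that differed with age also differed in base composition. The longest annotated transcripts of the risen genes had a median GC content of 43.2%, those of the fallen genes 53.2%, and those of all tested genes 49.9%. Their median lengths were 4291, 3915 and 3478 bases. Split by GC into 5 classes of 2415 genes, the genes had a median log2 difference of 0.23, 0.12, 0.021, -0.054 and -0.11 from the lowest to the highest GC. In the lowest class 14.8% of genes were called higher and 0.99% lower, and in the highest 1.08% and 6.09%.

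The libraries themselves differed the same way. The mean GC weighted by reads, without the 100 most abundant genes, was 49.3% to 49.8% in the older and 49.8% to 50.5% in the younger WT libraries, with no overlap. Knockout muscle lay at 49.5% to 49.7% at 20 months and 50.2% to 50.4% at 5 months. When a smooth trend on GC was removed from each library, 429 of 12075 genes were called, 229 lower (1.9%) and 200 higher (1.66%). Of the 1112 genes, 1064 had a GC value, all of these kept their direction, and 385 kept the call. Of the 24 leading genes 21 could be tested and 20 were called. After the correction 6 glucocorticoid-responsive genes and 8 matrix genes were still called lower, and 1 FoxO gene. What sets the GC difference between libraries was not tested.

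**Figure D5:**
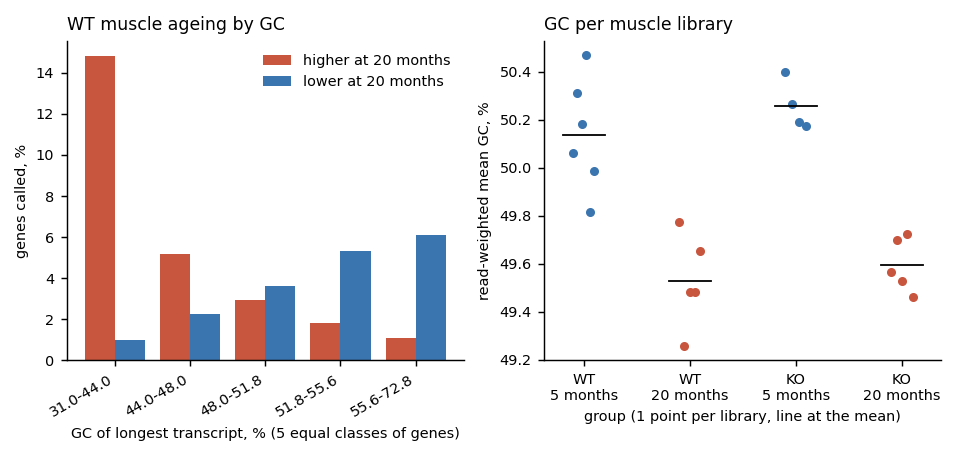
Left, percent of genes called higher (red) or lower (blue) at 20 months in WT muscle, by class of transcript GC content (5 classes of equal size); right, mean GC content in percent weighted by reads in each muscle library (blue 5 months, red 20 months), with a line at the group mean and an axis that does not start at 0. The share called higher goes from 14.8% to 1.08%, and the older libraries lie below the younger ones in both genotypes.

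Ageing in knockout muscle gave the closest comparison, with 5 libraries at 20 months and 4 at 5 months from mice of mixed B6 and 129 background, in which a tamoxifen-activated Cre at the ROSA26 locus removes Myc. It shares no library with WT muscle. In a fit of all 20 muscle libraries, 766 genes (6.1%) differed with age in knockout muscle. The spread in that fit was taken from WT and knockout libraries together. With the spread taken from all 4 muscle groups, WT ageing gave 2461 calls. The 1112 WT calls come from a fit of the WT libraries alone, so the shared counts and percentages below set calls from different fits side by side. Of the 1112 genes called in WT muscle, 1086 (97.7%) had the same sign there, against 77.5% of all genes tested, and 359 were called in both in the same direction and 0 in opposite directions. These 359 are 32.3% of the WT calls and 46.9% of the knockout calls. The 4 Y-linked genes tested had a median log2 difference of 2.09 in WT and 2.79 in knockout ageing. Y-linked transcripts were thus lower on average at 5 months in both genotypes. With the Xist libraries left out of the fit of all muscle libraries, 327 genes were called in knockout ageing. The part of Xist status in the shared direction was not tested.

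The risen WT genes had a median log2 change of 0.64 in WT and 0.48 in knockout muscle, and the fallen genes -0.84 and -0.54; the genes were chosen on the WT values. The difference between the genotypes was called for 0 of 12563 genes (0%) with limma (418 at an unadjusted p under 0.05) and for 0 with edgeR (463 unadjusted). All 24 leading genes had the same sign in both, and 12 were called in knockout muscle. Dkk3 rose by 2.20 there (adjusted p = 0.00914), Lnpep by 1.86 (adjusted p = 0.000452), H19 fell by 1.52 (adjusted p = 0.00886) and Meg3 by 1.75 (adjusted p = 0.0203).

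The 28 glucocorticoid-responsive genes had a median of -0.84 in knockout ageing and no call, and the 50 matrix genes a median of -0.60 with 7 lower. Over all genes, 267 of 12563 were lower in knockout ageing, with a median of -0.021. Ddit4 stood at -2.25 (adjusted p = 0.144) and Mss51 at 0.38 (adjusted p = 0.65) in knockout muscle. The difference between the genotypes was not called for either.

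Against WT liver, the ageing difference in muscle departed for 287 of 10813 genes tested in every tissue (2.65%), and against WT adipose tissue for 1870 (17.3%). The counts moved with single muscle libraries: against liver they were 140 and 141 without older replicate 2 or 4, 499 without older replicate 1 and 710 without younger replicate 5. Against adipose tissue the count was 1090 without older replicate 2, and without the Xist libraries it was 989. Of the 14 leading genes tested in all 3 tissues, 4 differed from liver and 5 from adipose tissue.

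Dkk3, at 2.73 in muscle, had ageing differences of 0.13 in liver and -0.37 in adipose tissue, and both contrasts were called (adjusted p = 0.00396 and 0.000215). Fn1, at -1.63 in muscle, stood at -0.36 in liver and 0.12 in adipose tissue, and the contrast with adipose tissue was called (adjusted p = 0.00662). Lnpep rose in muscle by 1.61 and had differences of 0.46 in liver and 2.12 in adipose tissue, neither contrast being called. Mt1 and Mt2 stood at -3.05 and -3.49 in liver and -1.04 and -0.77 in adipose tissue.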

How the data were processed

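Poly-A RNA libraries were made with a strand-specific kit and sequenced on Illumina instruments, per the labels' protocols. The authors deposited 1 table from the CLC software headed CPM, per the file headers; its column sums differ between libraries, so the deposited values are treated as a read signal that the authors scaled by a factor per library before deposit. Each of the 11 libraries gave whole reads for 100% of its values (tolerance 0.01 read). Builds GRCm38.p6 and mm10 are named in the submitters' processing notes; the use of strand in counting is not given in the sources used here. Symbols, coordinates and promoters came from RefSeq tables of GRCm38.p6, which gave 35336 of 36332 IDs a symbol, and GC content from GENCODE transcripts.

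A gene was tested where 5 or more of the 11 libraries exceeded 1 CPM. limma 3.58.1 in R 4.3.3 was fitted to log2(CPM + 1), its variances moderated along mean intensity. Calls were made where the p-value adjusted over all tested genes (Benjamini-Hochberg) was under 0.05, and SE is the standard error of its log2 fold change. The pseudocount understates changes of low genes. Ageing in WT muscle was compared with that in knockout muscle (20 libraries), and in WT liver and adipose tissue (33 libraries), as differences of differences. edgeR 4.0.16 and DESeq2 1.42.0 were run on the recovered reads as alternatives, and the scripts were tested on simulated data. No pair of libraries agreed within sampling noise (lowest chi-square per degree of freedom 19.7).

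Members and lists were chosen with earlier results of these data known. Genes printed with values are the 12 largest rises and 12 largest falls among called genes that average 5 CPM or more and whose groups do not overlap, up to 5 members with the lowest p of each of 30 process and 18 marker lists, and textbook members. Other list members are named without values or as chosen after their values were seen. Intervals and floors cover counting error only.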

Additional observations from a re-analysis of the deposited data

Results flagged for a closer look

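Across 218 sets of values, a named gene at 1 age each, 10 held a library set apart from the others of its age by Dixon's criterion. That is no more than the share of about 1 in 20 that chance gives. All 10 were at 5 months. Younger replicate 5 was low for Trim63 (433 CPM, the others 2898 to 7490), Foxo3 (53.7 CPM, the others 110 to 166), Slc2a1 (9.53 CPM, 31.9 to 54.5), Npc1 (148 CPM, 437 to 715) and Tagln (29.5 CPM, 52.6 to 64.4). It was high for Ghr (167 CPM, 105 to 120). Younger replicate 6 was low for Lnpep (6.77 CPM, 12 to 13.5) and high for Myh11 (84.5 CPM, 53 to 62.1). Clock read 55.4 CPM in younger replicate 1 against 39.0 to 41.9 CPM, and Myh8 31.3 CPM in younger replicate 2 against 3.06 to 5.70 CPM.

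For 9 contrasts the ageing difference of a leading gene in muscle departed from that in another WT tissue, by the limma test of the difference. Muscle minus liver gave 2.60 for Dkk3, 1.52 for D830031N03Rik (adjusted p = 0.0425), 1.41 for Oip5os1 (adjusted p = 0.0112) and -1.44 for Nfkbia (adjusted p = 0.0267). Muscle minus adipose tissue gave 3.10 for Dkk3, 1.12 for Oip5os1 (adjusted p = 0.0126), -3.07 for Ddit4 (adjusted p = 0.0276), -1.29 for Mid1 (adjusted p = 0.0252) and -1.75 for Fn1. The adjusted p-values of Dkk3 and Fn1 are given with their tissue values above.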

How the results depend on the processing

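The count of genes called was 1112 and lay within 1.5 times of it with pseudocounts of 0.1 and 5, a 5 CPM filter, TMM or equal-total scaling, robust variances and edgeR. It was 2461 with the spread taken from 4 muscle groups, 2344 with DESeq2, 429 with the GC trend removed, 264 without a filter on low values, 260 with Xist status as a covariate and 118 without the Xist libraries. Leaving out 1 library gave 21 to 2839. edgeR on the deposited scaling, edgeR against knockout muscle, the GC correction and the alternatives for Myc were chosen after seeing the data. For muscle against liver the count went from 287 to 461 without a filter and 185 without the Xist libraries, and from 140 to 710 with 1 library left out. Against adipose tissue it went from 1870 to 989 without the Xist libraries, and from 1090 to 2195 with 1 library left out. Against knockout muscle it was 0 in every alternative run. The Myc difference of -1.41 was -0.78 without the Xist libraries (exact p = 0.0873), and -1.03 to -1.74 with 1 library left out. Of 88 called genes followed by name none reversed, and 86 lost the call in at least 1 alternative. The cause was not tested.

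No paired analysis was possible because the codes of the older and younger mice share no number. For the tissue contrasts, a replicate block on the code number (correlation 0.128) gave 378 genes against liver and 2058 against adipose tissue. Depth limits genes near 1 CPM, where 3 reads are worth 0.150 to 0.246 CPM.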
